A study of Mus musculus with 15 samples.

Results

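The genes described here are 10 epithelial gatekeeper factors, listed by symbol and not by a rule on their values. They were chosen with earlier results of these data known. They comprise the transcription factor genes Grhl1, Grhl2, Grhl3, Ovol1, Ovol2, Elf3, Ehf and Klf5, and the splicing factor genes Esrp1 and Esrp2. All 10 were found among 51826 genes measured by RNA-seq in mouse mammary tissue. The data comprised 15 libraries of 13 mice. Values were TPM, transcript abundances scaled for gene length and library size.

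Trim24COE mice carried a Flag-tagged mouse Trim24 cDNA behind a lox-flanked stop cassette, and a Cre driven by the MMTV promoter, which acts in mammary epithelium. Of these mice, 64, 567 and 897 gave 3 metaplastic carcinosarcomas, and 89, 273_5 and 3956 gave 3 carcinomas. The other groups were 4 undiseased glands of mice with MMTV-Cre alone (mice 133, 392, 417_3 and 517_3), and 3 non-TRIM24 tumors (mice 219, FVB001 and FVB002). The labels give the strain as FVB throughout, while the series text gives the control glands as those of FVB/129 mice. The non-TRIM24 tumors arose spontaneously in mice whose genotype is labelled unknown. All Trim24COE animals descend from a transgene with 1 integration site, so that the model is 1 insertion. Ages are not in the labels; the study describes its control mice as age-matched. Tumor classes came from the labels. The study lists class calls made from RNA-seq beside those of its pathologists, so the class may not be independent of these libraries. Its pathologists differed on tumors 89, 567 and 3956. Tumors 89 and 3956, carcinomas in the labels, were each called carcinosarcoma by 1 pathologist and carcinoma by the other. Tumor 567 was called spindle cell carcinoma by 1 and carcinosarcoma by the other. The 3 non-TRIM24 tumors and a repeat library each of gland 133 and carcinoma 3956 were sequenced in batch 2, and the other 10 libraries in batch 1.

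Several libraries stood apart. Trim24 itself ranged from 10.6 to 24.1 TPM in the 6 Trim24COE tumors and from 14.5 to 22.4 TPM in the 4 glands (log2 difference -0.24, adjusted p = 0.557). The overexpression named in the labels was thus not visible in these TPM, and the groups below are those of the labels. The study itself reports high Trim24 RNA by qRT-PCR and raised TRIM24 protein by immunostaining in Trim24COE tumors against Cre-only glands. Glands 417_3 and 517_3 differed over 2-fold in TPM + 1 in 2.92% of 16775 genes, less than the first and repeat libraries of mouse 3956 (3.48%) or of mouse 133 (4.29%). Without read counts, sampling noise could not be tested, and results that rest on them are also given with both averaged as 1 gland. Glands 133 and 392 held 1718 and 1946 TPM of the adipocyte gene Adipoq, against 10.2 and 10.8 TPM in glands 417_3 and 517_3. Tumor FVB001 held 4315 TPM of Adipoq with 36.4 TPM of the epithelial surface gene Epcam, the latter below every gland. Among mixtures of any other pair of libraries, the profile of tumor FVB002 lay closest to 56% of tumor 219 with 44% of tumor FVB001, with 2.53% of the same genes over 2-fold away, which is closer than the repeat libraries of 1 mouse lay to each other.

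Epithelial cells hold together through E-cadherin junctions and tight junctions, and this state is kept by a small group of regulators. Grainyhead-like factors (Grhl1, Grhl2 and Grhl3) bind enhancers of junction genes and keep them accessible, and Grhl2 and Zeb1 repress each other. Ovol1 and Ovol2 are zinc finger repressors that act on Zeb genes and so oppose the epithelial-mesenchymal transition (EMT). Esrp1 and Esrp2 are RNA-binding proteins that set the epithelial splice forms of genes such as Fgfr2 and Cd44. Elf3 and Ehf are Ets-family transcription factors of glandular and surface epithelia, and Klf5 is a zinc finger factor of basal and proliferating epithelial cells. Carcinosarcomas hold both epithelial and spindle-shaped mesenchymal tumor tissue.

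In GENCODE coordinates of the mouse build GRCm38, Elf3 lies at chr1:135253575-135258568, Ehf at chr2:103263433-103303278, Ovol2 at chr2:144305175-144332146, Esrp1 at chr4:11331933-11386783, Grhl3 at chr4:135541888-135573630, Esrp2 at chr8:106130319-106136974 and Ovol1 at chr19:5549136-5560646, all on the minus strand. Grhl1 at chr12:24572283-24617391, Klf5 at chr14:99298691-99315036 and Grhl2 at chr15:37233036-37363569 are on the plus strand. The members are not neighbours: the pairs that share chromosomes 2 and 4 lie far apart.

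RefSeq promoter windows on GRCm38.p6 were held for 4 members: Elf3, Ovol2, Grhl3 and Grhl1, the last with 2 windows. The letters CACCTG, an E-box bound by Zeb and Snai repressors, were searched on both strands because these repressors oppose the gatekeepers. They stood in the windows of Elf3, where they began 140 bases before the RefSeq start, and of Grhl3, where they began 19 bases before it and again 8 bases after it. Among 32851 mouse promoter windows of this length, 20.2% hold the same letters. The Grhl motif AACNGGTT (2.09% of all windows) and the Ovol motif CCGTTA (2.76%) were in none of the members' windows, and the Ets motif GGAAGT (23.8%) was in the Ovol2 window alone. The stretches of the Elf3 and Grhl3 windows that precede the first annotated exon are shown 5′ to 3′ on the minus strand, at chr1:135258569-135258722 and chr4:135573631-135573882, because they hold this E-box, in capitals.
Elf3: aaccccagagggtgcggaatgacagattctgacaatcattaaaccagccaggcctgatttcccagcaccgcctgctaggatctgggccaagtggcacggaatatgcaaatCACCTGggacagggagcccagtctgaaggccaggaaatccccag
Grhl3: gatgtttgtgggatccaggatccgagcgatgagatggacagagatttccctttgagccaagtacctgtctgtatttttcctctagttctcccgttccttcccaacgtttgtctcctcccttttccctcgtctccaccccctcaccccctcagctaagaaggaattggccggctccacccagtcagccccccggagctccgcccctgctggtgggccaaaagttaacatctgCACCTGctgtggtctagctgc
These are matches of letters only, and no binding was measured.

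Carcinosarcomas were compared with undiseased glands to find which epithelial regulators were lower in the metaplastic tumors. In 9 of the 10 members, and in 7 of the 8 members tested, every carcinosarcoma lay below every gland. Over all genes tested in this comparison, 21.6% had this order. The exception was Klf5. Of the 8 members that passed the filter on low values, 7 fell (Grhl1, Grhl2, Ovol2, Esrp1, Esrp2, Elf3 and Ehf), with differences in log2(TPM + 1) from -5.31 to -1.96 and adjusted p from 0.00213 to 0.00987. Over all 15287 genes tested, 13.1% fell, and the calls split into 1503 higher and 2008 lower, or 2412 and 1818 after median-ratio rescaling of the libraries, which left the 7 members lower. The median difference was -3.66 over the 8 members and -0.12 over all genes tested. Ovol1 and Grhl3 did not pass the filter (TPM of at least 1 in 3 libraries) and are described by their levels. Ovol2 and Esrp2 passed it only through the glands. With no filter the same 7 members were called lower. In bulk tissue, fewer epithelial cells and less RNA of these genes per cell cannot be told apart.

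**Figure D1:**
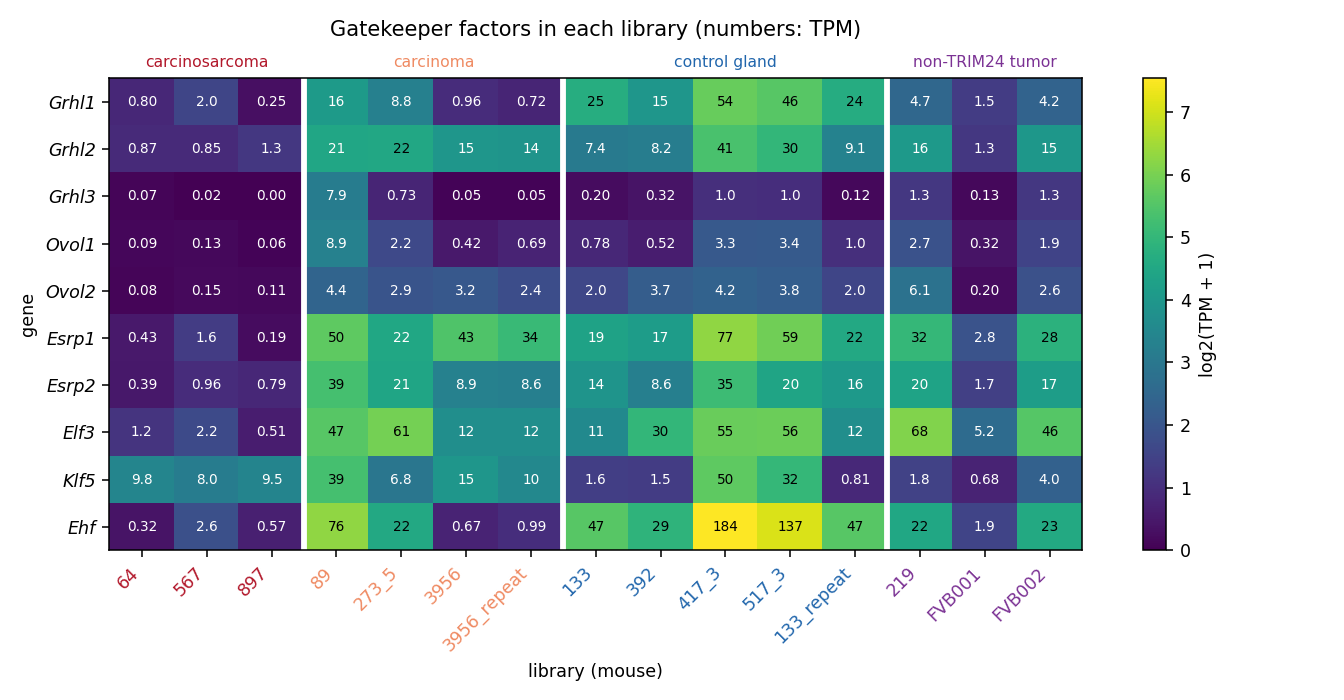
Levels of the 10 gatekeeper genes (rows) in each of the 15 libraries (columns, named by mouse and grouped by label). Colors give log2(TPM + 1) and the numbers in the cells give TPM; the 3 carcinosarcomas are dark for every gene but Klf5, and carcinoma 3956 and its repeat are dark for Grhl1 and Ehf while Grhl2 and Esrp1 are bright.

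Among the Grainyhead-like genes, Grhl2 had 0.87, 0.85 and 1.34 TPM in carcinosarcomas 64, 567 and 897. It had 21.0, 21.7 and 14.6 TPM in carcinomas 89, 273_5 and 3956, and 7.42, 8.22, 40.8 and 30.5 TPM in glands 133, 392, 417_3 and 517_3. Carcinosarcomas overlapped with neither of the other groups, while carcinomas lay inside the range of the glands. Grhl2 fell in carcinosarcomas against glands (log2(TPM + 1) difference -3.15 ± 0.60 SE, adjusted p = 0.00987) and against carcinomas (-3.30 ± 0.29 SE, adjusted p = 0.0123). With an unlogged mean of 1.02 ± 0.28 TPM (SD, n = 3) in carcinosarcomas against 19.1 ± 3.93 TPM (SD, n = 3) in carcinomas, the gap exceeded the spread within both groups.

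Grhl1, the paralog with the higher level in all 4 glands, had 0.80, 1.97 and 0.25 TPM in carcinosarcomas 64, 567 and 897. It had 16.2, 8.77 and 0.96 TPM in carcinomas 89, 273_5 and 3956, and 24.7, 14.7, 54.0 and 46.3 TPM in glands 133, 392, 417_3 and 517_3. Carcinoma 3956 thus lay among the carcinosarcomas. Grhl1 fell in carcinosarcomas against glands (-4.09 ± 0.51 SE, adjusted p = 0.00213). Against carcinomas the log2 difference was -1.88 ± 0.80 (SE, adjusted p = 0.335). Grhl3, an epidermal barrier factor, was at or below 0.07 TPM in the carcinosarcomas and listed at 0 in 897. It reached 7.93 TPM in carcinoma 89, with 0.73 TPM in carcinoma 273_5, 0.05 TPM in carcinoma 3956 and 0.20 to 1.02 TPM in the glands. Its values were too low in most libraries for the test against carcinosarcomas.

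Ovol2 had 0.08, 0.15 and 0.11 TPM in carcinosarcomas 64, 567 and 897. It had 4.36, 2.85 and 3.19 TPM in carcinomas 89, 273_5 and 3956, and 2.05, 3.68, 4.19 and 3.77 TPM in glands 133, 392, 417_3 and 517_3. Carcinosarcomas stood below all other libraries of batch 1, and carcinomas and glands overlapped. Ovol2 fell in carcinosarcomas against glands (-1.96 ± 0.27 SE, adjusted p = 0.00274) and against carcinomas (-1.99 ± 0.27 SE, adjusted p = 0.0343). At these levels the pseudocount of 1 TPM shrinks a log2 difference, so the size is understated. Ovol1 had 0.06 to 0.13 TPM in carcinosarcomas. It had 8.94, 2.19 and 0.42 TPM in carcinomas 89, 273_5 and 3956, and 0.52 to 3.36 TPM in glands. For Ovol1 too no carcinosarcoma overlapped with a carcinoma or a gland, although most of its values were near or below 1 TPM.

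Esrp1, the main epithelial splicing regulator, had 0.43, 1.55 and 0.19 TPM in carcinosarcomas 64, 567 and 897. It had 49.9, 21.5 and 43.3 TPM in carcinomas 89, 273_5 and 3956, and 19.3, 16.8, 77.2 and 58.9 TPM in glands 133, 392, 417_3 and 517_3. The highest carcinosarcoma was more than 10 times lower than the lowest gland. Esrp1 fell in carcinosarcomas against glands (-4.47 ± 0.59 SE, adjusted p = 0.00253) and against carcinomas (-4.50 ± 0.44 SE, adjusted p = 0.0130). Esrp2 had 0.39, 0.96 and 0.79 TPM in the carcinosarcomas in the same order. It had 38.7, 20.6 and 8.89 TPM in carcinomas 89, 273_5 and 3956, and 13.9, 8.62, 34.6 and 19.9 TPM in the glands in the order above. No carcinosarcoma overlapped with another group of batch 1. Esrp2 fell (-3.41 ± 0.45 SE, adjusted p = 0.00245) against glands and (-3.59 ± 0.51 SE, adjusted p = 0.0385) against carcinomas.

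Of the Ets-family genes, Elf3 had 1.20, 2.21 and 0.51 TPM in carcinosarcomas 64, 567 and 897. It had 47.1, 61.1 and 12.2 TPM in carcinomas 89, 273_5 and 3956, and 10.9, 30.5, 54.9 and 56.3 TPM in glands 133, 392, 417_3 and 517_3. Carcinosarcomas lay below all carcinomas and glands, which overlapped with each other, and Elf3 fell in carcinosarcomas against glands (-3.91 ± 0.58 SE, adjusted p = 0.00384). Against carcinomas the log2 difference of -3.95 ± 0.62 (SE) narrowly missed the threshold (adjusted p = 0.0525). Ehf had the highest mean level of the members in the glands (99.3 TPM), with 47.2, 28.6, 184 and 137 TPM in glands 133, 392, 417_3 and 517_3. It had 0.32, 2.61 and 0.57 TPM in carcinosarcomas 64, 567 and 897, and 76.1, 22.3 and 0.67 TPM in carcinomas 89, 273_5 and 3956. Carcinoma 3956 again lay within the range of the carcinosarcomas. Ehf fell in carcinosarcomas against glands (-5.31 ± 0.68 SE, adjusted p = 0.00232), and against carcinomas the log2 difference was -2.88 ± 1.302 (SE, adjusted p = 0.357).

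Klf5 followed another pattern. It had 9.75, 8.03 and 9.46 TPM in carcinosarcomas 64, 567 and 897, the narrowest spread of the 4 groups. It had 38.5, 6.84 and 14.6 TPM in carcinomas 89, 273_5 and 3956, and 1.65, 1.54, 49.8 and 31.7 TPM in glands 133, 392, 417_3 and 517_3. The carcinosarcomas sat between the 2 kinds of gland, above 133 and 392 and below 417_3 and 517_3. The log2 difference was -0.03 ± 1.10 (SE, adjusted p = 0.986) against glands and -0.75 ± 0.56 (SE, adjusted p = 0.557) against carcinomas. The sign against glands was not stable: with the keratin level as a covariate the log2 difference was 3.82 (adjusted p = 0.0043), and with the adipocyte level as a covariate it was -3.26 (adjusted p = 0.00141). Neither covariate overlapped between carcinosarcomas and glands, so both of these fits extrapolate.

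Carcinosarcomas were then compared with carcinomas of the same Trim24COE model, which asks whether these levels follow the tumor class. In 6 of the 10 members (Grhl2, Ovol1, Ovol2, Esrp1, Esrp2 and Elf3) every carcinosarcoma lay below every carcinoma. This order held for 5 of the 8 members tested, beside 14.4% of all genes tested. Of the 8 members tested, 4 fell (Grhl2, Ovol2, Esrp1 and Esrp2). Over all 14193 genes tested, 0.585% fell and 0.113% rose. The median difference was -3.09 over the 8 members and -0.10 over all genes tested. These calls rested on single mice. Leaving out carcinosarcoma 64, carcinoma 89 or carcinosarcoma 897 left 0 members called, leaving out carcinoma 273_5 or carcinosarcoma 567 left 2, and leaving out carcinoma 3956 gave 6. Without mouse 64 or 89, 0 of all genes passed in limma, and 1143 and 1495 had an unadjusted p under 0.05. The 4 members kept differences of -4.86 to -1.85 in these 6 fits. Ovol2 and Esrp2 were below 1 TPM in every carcinosarcoma. They thus passed the filter only through the carcinomas, which fixed their order in advance. With no filter on low values, 0 members and 0 of 35695 genes passed in limma. Both comparisons used the same carcinosarcoma libraries and are not independent of each other.

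**Figure D2:**
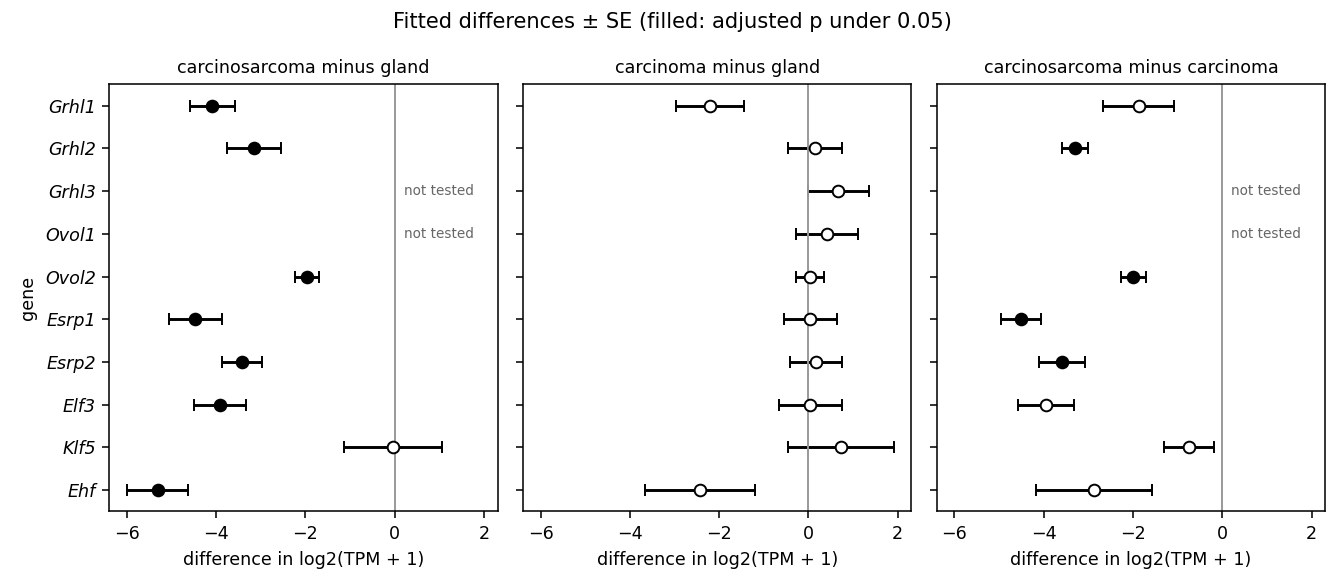
Fitted differences in log2(TPM + 1) with their standard errors for the 10 members (vertical axis) in the comparisons of carcinosarcomas with glands, carcinomas with glands, and carcinosarcomas with carcinomas. Filled points have an adjusted p under 0.05; 7 members are filled in carcinosarcomas against glands, 0 in carcinomas against glands and 4 in carcinosarcomas against carcinomas, and Grhl3 and Ovol1 were not tested in the carcinosarcoma panels.

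The epithelial content of the libraries was read from keratins, which the members' rule did not use. The summed level of 8 mammary keratins was 361 to 1421 TPM in carcinosarcomas, 2342 to 6194 TPM in carcinomas and 629 to 5539 TPM in glands. All 8 had negative differences between carcinosarcomas and glands, with a median of -3.09, and 3 fell, Krt5 (-6.20 ± 0.90 SE, adjusted p = 0.00359), Krt19 (-3.37 ± 0.67 SE, adjusted p = 0.0110) and Krt7 (-2.85 ± 0.67 SE, adjusted p = 0.0210). The smallest difference was that of Krt8, a luminal keratin (-0.66 ± 0.95 SE, adjusted p = 0.651). Carcinosarcoma 897 held 914 TPM of Krt8 against 158 TPM in gland 133 and 213 TPM in gland 392, yet its Esrp1 level was 0.19 TPM against 19.3 and 16.8 TPM there. Krt8 was chosen after its values were seen, and Krt5 (0.22 TPM), Krt7 (0.95 TPM), Krt17 (1.73 TPM) and Krt19 (28.9 TPM) in 897 were all below every gland. The mean log2(TPM + 1) over the 8 keratins was lower in 897 (3.77) than in any other library. The keratin means of carcinosarcomas (3.77 to 4.18) overlapped with neither glands (5.12 to 8.59) nor carcinomas (5.88 to 8.31). A fit with this mean as a covariate therefore extrapolates and cannot part keratin level from group. In such a fit 6 members stayed lower in carcinosarcomas than in glands, and Grhl2 no longer passed (log2 difference -1.17, adjusted p = 0.0802). Over all 15287 genes of that fit, 1749 were called lower and 2653 higher. With this covariate 0 genes passed in limma between carcinosarcomas and carcinomas, and 754 had an unadjusted p under 0.05.

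Stromal markers also differed among the libraries, with ranges that overlapped between both Trim24COE tumor classes, and their part in the results was not tested. The summed level of 8 fibroblast and mesenchymal markers was 2075 to 8005 TPM in carcinosarcomas, 303 to 2930 TPM in carcinomas and 605 to 1509 TPM in glands, with 0 of 8 past the limma test between carcinosarcomas and carcinomas (1 at an unadjusted p under 0.05) and 4 of 8 higher against glands. The 8 leukocyte markers summed to 234 to 418 TPM in carcinosarcomas, 151 to 336 TPM in carcinomas and 64.6 to 153 TPM in glands. The 12 adipocyte markers summed to 194 to 301 TPM, 183 to 1525 TPM and 1985 to 40618 TPM in these groups. With the mean adipocyte level as a covariate, the 7 members were called lower in carcinosarcomas than in glands, and Klf5 joined them. Calls rose over all 15287 genes of that fit too, with 3309 lower and 1586 higher, against 2008 and 1503 without the covariate. The mean log2(TPM + 1) over the adipocyte markers was at most 3.42 in carcinosarcomas and at least 4.41 in glands. The fit therefore extrapolates and cannot part adipocyte level from group.

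Carcinomas as a group were not separated from glands in these genes. All 10 members were tested, 0 passed in limma with adjusted p of 0.149 to 0.984 (1 had an unadjusted p under 0.05), and for 0 members did the carcinomas lie wholly below or above the glands. Over all 15479 genes tested, 3.5% passed, and 3328 genes had an unadjusted p under 0.05. The median difference was 0.09 over the members and 0.02 over all genes. Grhl1 (log2 difference -2.21 ± 0.77 SE, adjusted p = 0.149) and Ehf (-2.43 ± 1.24 SE, adjusted p = 0.310) had negative differences, and the other 8 had differences between 0.03 and 0.72. These signs were not stable: 8 members were negative without carcinoma 89 (median -0.22) or with the adipocyte covariate (-0.64), 6 without gland 133 (-0.18) and 5 without gland 392 (-0.06). The median was 0.51 without carcinoma 3956, 0.41 without gland 417_3, 0.28 without gland 517_3 and 0.34 with both of these glands averaged. It was 0.22 with the keratin covariate and 0.06 with averaged repeats, where 4 members were negative.

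The 3 carcinomas differed among themselves. Carcinoma 3956 kept Grhl2, Ovol2 and Esrp1 at levels inside the range of the glands, while Ehf at 0.67 TPM, Grhl1 at 0.96 TPM, Grhl3 at 0.05 TPM and Ovol1 at 0.42 TPM were below every gland. Its repeat library gave 13.9 TPM of Grhl2, 33.5 TPM of Esrp1, 0.99 TPM of Ehf, 0.72 TPM of Grhl1 and 0.05 TPM of Grhl3, again below every gland for the last 3, and 0.69 TPM of Ovol1, which was above gland 392 (0.52 TPM). Over the 10 members the repeat differed from the first library by -0.45 to 0.25 on the log2(TPM + 1) scale. Elf5, an Ets factor of luminal progenitors related to Ehf, had 2.34 TPM in carcinoma 3956 against 88.1 and 79.3 TPM in carcinomas 89 and 273_5 and at least 61.3 TPM in the glands. Carcinoma 89 stood at the other end, with the highest Grhl3 (7.93 TPM) and Ovol1 (8.94 TPM) of all libraries. It also held 961 TPM of the basal keratin Krt5, 248 TPM of Sbsn and 16.7 TPM of Ivl, both genes of squamous differentiation. In the other batch 1 libraries Ivl was at most 2.77 TPM. Other genes of the same list of 8 epidermal differentiation markers were not high in carcinoma 89, with 4.35 TPM of Krt10 (8.24 to 9.30 TPM in glands), 0.01 TPM of Krt1, 0.11 TPM of Lor and 0.14 TPM of Krt77.

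**Figure D3:**
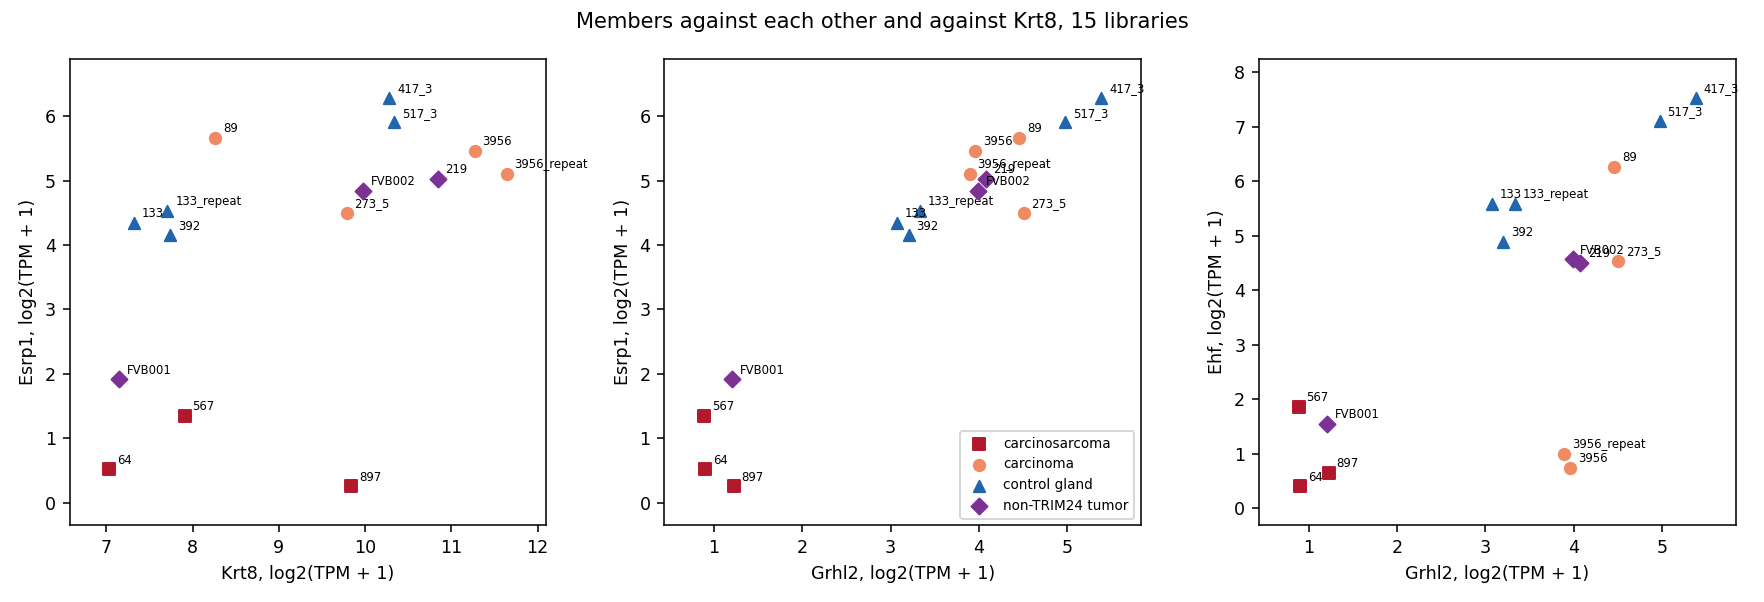
Esrp1 against Krt8, Esrp1 against Grhl2, and Ehf against Grhl2, all as log2(TPM + 1), with 1 point for each of the 15 libraries labelled by mouse. Carcinosarcoma 897 lies at a high Krt8 and low Esrp1 level, Esrp1 and Grhl2 rise together, and both libraries of carcinoma 3956 lie at a high Grhl2 and low Ehf level.

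With all 6 Trim24COE tumors as 1 group against the 4 glands, Grhl1 and Ehf were the members that fell, 2 of the 9 tested. Over all 15196 genes tested, 9.13% fell. The log2 difference was -3.15 ± 0.73 (SE, adjusted p = 0.0150) for Grhl1 and -3.87 ± 1.14 (SE, adjusted p = 0.0391) for Ehf. Elf5 fell alongside them (log2 difference -4.12 ± 1.17 SE, adjusted p = 0.0336). The call for Ehf was lost without any one of mice 64, 133, 417_3, 517_3, 567, 897 or 3956 (adjusted p from 0.0651 to 0.101) and with glands 417_3 and 517_3 averaged (0.0990). With the adipocyte covariate 0 members passed. The 7 other members had differences from -2.21 to 0.34 with an SE of 0.52 to 1.16.

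Non-TRIM24 tumors were compared with the other groups in a fit that held a batch term and the mouse as a block, since batch 2 shared only gland 133 and carcinoma 3956 with batch 1. Against glands 0 of 10 members passed in limma (2 at an unadjusted p under 0.05), where 0.709% of 16775 genes did and 3235 genes had an unadjusted p under 0.05. The calls over all genes were 34 higher and 85 lower, or 85 and 87 after rescaling, and the median difference was -1.01 over the members and -0.27 over all genes. The lowest values were those of Grhl1 (log2 difference -2.78 ± 0.69 SE, adjusted p = 0.0855) and Ehf (-2.76 ± 1.15 SE, adjusted p = 0.222). Grhl1 had 4.73, 1.52 and 4.24 TPM in tumors 219, FVB001 and FVB002, all below every gland. Without carcinoma 3956 Grhl1 passed (adjusted p = 0.0310), in a fit of 16531 genes in which 285 passed in place of 119. The members' median moved to -0.044, with 5 of 10 negative, without FVB001, to -0.54 without gland 417_3, to -0.67 with glands 417_3 and 517_3 averaged and to -0.21 with repeats as separate libraries.

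Between carcinomas and non-TRIM24 tumors 0 members passed in limma (0 at an unadjusted p under 0.05), where 5 of 16775 genes (0.0298%) passed and 2953 had an unadjusted p under 0.05. All 10 members had positive differences, from 0.29 to 2.02, with a median of 0.63 beside 0.27 over all genes. The direction was not stable, since 5 members were negative with repeats as separate libraries (median -0.10) and 3 were negative without carcinoma 89 (0.10) or without FVB001 (0.094). Without carcinoma 3956 the median was 1.48, and without tumor 219 it was 1.01. It was 0.40 after rescaling and 0.95 with a pseudocount of 0.1. The highest was Klf5 (log2 difference 2.02 ± 1.05 SE, adjusted p = 0.324), which had 1.80, 0.68 and 4.04 TPM in tumors 219, FVB001 and FVB002, all below every carcinoma. Carcinosarcomas fell against non-TRIM24 tumors in 2 of 10 members, Elf3 (-3.62 ± 0.89 SE, adjusted p = 0.0373) and Esrp1 (-3.32 ± 0.84 SE, adjusted p = 0.0413), where 1.52% of all genes fell. All calls were 544 higher and 255 lower, or 541 and 441 after rescaling, and the median difference was -1.85 over the members and 0.13 over all genes. Elf3 had 68.1, 5.20 and 45.8 TPM in tumors 219, FVB001 and FVB002, and Esrp1 had 31.7, 2.77 and 27.7 TPM. FVB001 was the lowest of the 3 in every member. Its members summed to 15.8 TPM, inside the 13.3 to 18.5 TPM of the carcinosarcomas. Their mean log2(TPM + 1) was 1.17 in FVB001 and 0.75 to 1.19 in the carcinosarcomas. Both matches rested on Klf5, with 9.75, 8.03 and 9.46 TPM in carcinosarcomas 64, 567 and 897. Over the other members FVB001 lay above every carcinosarcoma in sum and mean. Grhl1 (1.52 TPM), Grhl2 (1.31 TPM) and Ehf (1.93 TPM) in FVB001 lay inside the range of the carcinosarcomas. Grhl3, Ovol1, Ovol2 (0.20 TPM), Esrp1, Esrp2 and Elf3 lay above that range, and Klf5 (0.68 TPM) lay below it. Without FVB001 5 members passed, Elf3 alone passed without 89, 517_3 or 3956, and 0 members passed without FVB002, 219, 64, 567 or 897. In FVB002, 9 of the 10 members were above and Ovol2 was below the value that the mixture of tumors 219 and FVB001 gives.

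Genes of the junctions and epithelial surface, the program that gatekeepers are known to hold up, were also lower in the carcinosarcomas as a group. Whether the members act on these genes here was not tested. All 14 listed genes fell against glands, with a median difference of -4.20, and 9 of 14 fell against carcinomas, with a median of -4.59. The smallest p against carcinomas was that of the protease inhibitor gene Spint1 (-4.36 ± 0.31 SE, adjusted p = 0.00734). The serine protease genes Prss8 (-3.84 ± 0.35 SE, adjusted p = 0.0123) and St14 (-4.67 ± 0.45 SE, adjusted p = 0.0123) and the tight junction gene Marveld3 (-3.53 ± 0.39 SE, adjusted p = 0.0190) came next. Marveld3 was at most 0.73 TPM in carcinosarcomas and passed the filter only through the carcinomas. Cdh1, which encodes E-cadherin, had 3.19, 18.9 and 1.29 TPM in carcinosarcomas 64, 567 and 897 against 84.8 to 124 TPM in carcinomas. It fell against glands (-3.84 ± 0.87 SE, adjusted p = 0.0177) and missed the threshold against carcinomas (-4.17 ± 0.74 SE, adjusted p = 0.0744). Epcam had a difference of -4.83 ± 0.84 SE against glands (adjusted p = 0.00691) and -5.49 ± 0.90 SE against carcinomas (adjusted p = 0.0598). Carcinosarcoma 567 had the highest value of the 3 in 13 of the 14 genes. Its Grhl1, Ovol1, Ovol2, Esrp1, Esrp2, Elf3 and Ehf levels were also the highest of the 3. Grhl2 (0.85 TPM) and Klf5 (8.03 TPM) were instead lowest in 567, and Grhl2 was highest in 897 (1.34 TPM).

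Of 9 EMT-inducing transcription factor genes, 8 were tested and 0 passed in limma between carcinosarcomas and carcinomas, with 4 at an unadjusted p under 0.05. All 8 differences were positive, with a median of 0.95. The gene not tested, Foxc2, went the other way at low levels. It had 0.10 to 0.63 TPM in carcinosarcomas and 0.65 to 0.94 TPM in carcinomas. Against glands 2 rose and 0 fell. Zeb1, a target of Ovol repressors, had 12.1, 16.9 and 15.4 TPM in carcinosarcomas 64, 567 and 897 and 5.54, 2.28 and 6.86 TPM in carcinomas 89, 273_5 and 3956, with no overlap (log2 difference 1.50 ± 0.39 SE, adjusted p = 0.184). Snai1 had 53.4 to 63.2 TPM in carcinosarcomas and 21.5 to 39.6 TPM in carcinomas (1.04 ± 0.28 SE, adjusted p = 0.197). Zeb2 had 20.1 to 22.9 TPM in carcinosarcomas against 6.93 to 17.8 TPM in carcinomas, and 42.7 TPM in gland 392 (0.86 ± 0.35 SE against carcinomas, adjusted p = 0.322).

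Of 8 other splicing factor genes linked to EMT, 1 fell against carcinomas, Rbm47, an epithelial RNA-binding protein, with 2.51 to 2.84 TPM in carcinosarcomas and 10.3 to 18.3 TPM in carcinomas (-1.97 ± 0.30 SE, adjusted p = 0.0467). Its call was lost in 5 of 6 other settings and without any one of mice 64, 89, 273_5, 567 and 897 (adjusted p from 0.0811 to 0.264). The median over the 8 was -0.09. Against glands Rbm47 fell (-2.67 ± 0.38 SE, adjusted p = 0.00342) and 1 other gene of the list rose. Of 12 relatives of the members (other Elf, Klf, Tfcp2 and Ovol genes), 9 were tested against carcinomas and 0 passed in limma (1 at an unadjusted p under 0.05), with a median of -0.13. Elf5 was the relative with the largest difference there (-3.36 ± 1.26 SE, adjusted p = 0.292), and it fell against glands (-5.80 ± 0.63 SE, adjusted p = 0.00143).

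**Figure D4:**
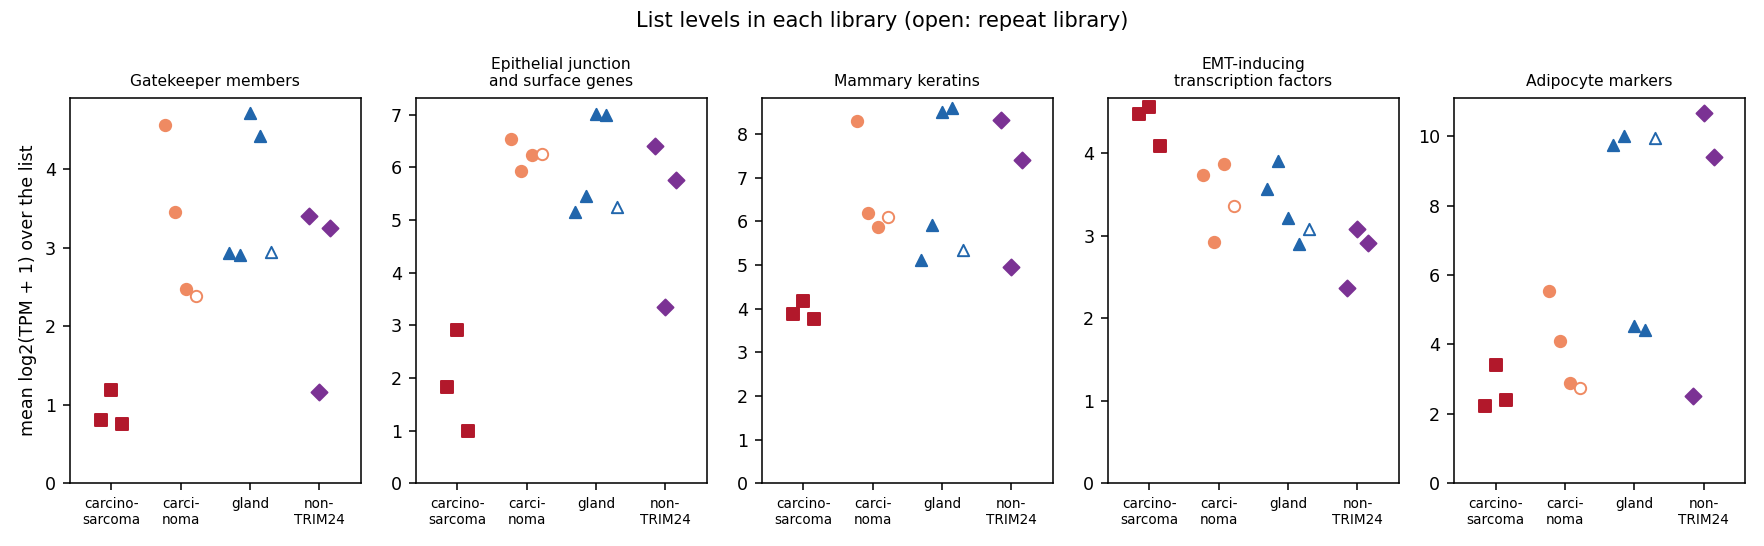
Mean log2(TPM + 1) over 5 gene lists (panels) in each library, by group; open symbols are the repeat libraries of carcinoma 3956 and gland 133. For the gatekeeper members and the junction genes the 3 carcinosarcomas lie below all carcinomas and glands, for the EMT-inducing factors they lie above them, and the adipocyte markers split the glands and the non-TRIM24 tumors.

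Members were compared with each other over the 10 libraries of batch 1, which mix tumor classes and glands of unlike composition, so that a shared class or epithelial share enters every value. Pearson's r of log2(TPM + 1) had a median of 0.78 over the 45 pairs and ranged from 0.22 to 0.99. The closest pair was Grhl1 with Ehf (0.99), followed by Ovol2 with Esrp1 (0.97) and Grhl2 with Esrp1 (0.96). Grhl3 was nearest to Ovol1 (0.92). Klf5 had the 7 lowest values, down to 0.22 with Grhl1, and an r of 0.40 with the mean of the other 9, where the others had 0.68 to 0.96. In the 6 Trim24COE tumors alone the median was 0.84, and Grhl1 with Ehf again gave 0.99.

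Of 13785 other genes, 4 of the 5 most like the mean of the 10 members over these libraries were Tmem184a (r = 0.98), Zfp296 (0.98), Rph3al (0.98) and Fhdc1 (0.97). Tmem184a had 0.15 to 0.73 TPM in carcinosarcomas, 6.21 to 14.4 TPM in carcinomas and 6.0 to 27.1 TPM in glands. The lowest values belonged to Extl2 (-0.94), Scoc (-0.94) and Ghdc (-0.94). Scoc had 76.3 to 103 TPM in carcinosarcomas and 28.0 to 50.7 TPM in the carcinomas and glands. The order at the top was not stable, since over the 6 tumors alone these 4 genes had an r of 0.97 to 0.98 but ranked from 33 to 75.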

How the data were processed

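Total RNA of tumors and glands was sequenced, 1 library per mouse except for the repeats. The authors trimmed reads, aligned them with STAR to GRCm38 with GENCODE transcripts and estimated TPM per gene with RSEM, and they deposited the TPM in 1 table per batch. The labels' processing notes name other tools (TopHat, Cufflinks), and the RNA and library kits of the labels differ from those of the study's methods. TPM keep no depth, so depth and counting error are unknown. Low-level values (Ovol1, Grhl3) may rest on few reads.

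Genes were kept where the number of libraries at 1 TPM or more reached the number of mice in the smaller group. They were fitted on log2(TPM + 1) with limma 3.58.1 in R 4.3.3 (two-sided, empirical Bayes with a trended variance), and p-values were adjusted by Benjamini-Hochberg over every gene tested, with 0.05 as the threshold. Comparisons within batch 1 used only its libraries of the groups compared. Those with non-TRIM24 tumors used all 15, a batch term and the mouse as a random block (correlation 0.95, also used where leaving out mouse 133 or 3956 prevented its estimate). Fits were tested on simulated data. Members and lists were chosen with earlier results of these data known. All members are named. Of other lists, at most 4 genes with the smallest p between carcinosarcomas and carcinomas are named. Cdh1, Epcam, Zeb1, Zeb2, Rbm47, Elf5 and Trim24 are named as well, and Foxc2 as the untested gene of its list. Marker genes of composition (Adipoq, Krt8, Krt5, Sbsn, Ivl) were named after their values were seen. A gene among those most like the members and a part of the transgene are not reported here.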

Additional observations from a re-analysis of the deposited data

Results flagged for a closer look

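Carcinoma 89 stood apart from the other 5 Trim24COE tumors in Grhl3, with 7.93 TPM, and its gap to the next tumor was 0.75 of the whole range on the log2(TPM + 1) scale. The same check was made in 20 groups of values (10 genes in glands and in Trim24COE tumors), of which chance marks about 1 in 20.

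The difference from glands was itself different between carcinosarcomas and carcinomas for 4 members by the test between both tumor classes, with log2 differences of -3.30 for Grhl2, -1.99 for Ovol2, -4.50 for Esrp1 and -3.59 for Esrp2. These are the calls already given above, from a fit that held no gland, and not an added result. All were lost without mouse 64, 89 or 897, with no filter and with the keratin covariate.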

How the results depend on the processing

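No paired analysis was possible because mice carry names and not numbers shared between groups. The 7 members lower in carcinosarcomas than in glands kept their direction in all alternatives, and all 7 kept their call in all but the keratin covariate, where Grhl2 lost it. Keratin and adipocyte levels did not overlap between these groups, so the fits with these covariates extrapolate. Depth is unknown in TPM, batch and group are nearly confounded for non-TRIM24 tumors, and 3 mice a group limit every comparison. Averaging glands 417_3 and 517_3 was chosen after seeing the data; the cause of the changes below was not tested.

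Members called in the 6 Trim24COE tumors against glands were 2 as reported, 1 with no filter, 7 with all libraries in one fit (class means fitted separately), 0 with the adipocyte covariate (1076 genes), 1 with the keratin covariate, 1 with both glands averaged and 1 to 2 without single mice (1779 to 2911 genes). For carcinosarcomas against glands, 1623 genes passed with no filter and 1345 to 3093 without single mice, 1345, 1793 and 2185 of them without 64, 567 and 897, always with 7 members. Klf5 turned positive there with a pseudocount of 0.1 (0.16), rescaling (0.18), the keratin covariate (3.82), averaged repeats (0.0296) and averaged glands (0.62), and ranged from -0.71 to 0.74 without single mice. For carcinomas against glands, genes called were 46 with no filter, 1170 in one fit, 1077 with the keratin covariate, 82 with averaged glands and 72 to 526 without single mice, with 0 members throughout. Between carcinosarcomas and carcinomas 0 genes and 0 members passed with no filter (2871 genes at an unadjusted p under 0.05) or with the keratin covariate, under which Grhl1 (0.99), Klf5 (1.29), Ehf (2.19) and Elf5 (0.44) turned positive, and 0 to 293 genes and 0 to 6 members without single mice. Rbm47 kept its call with a pseudocount of 0.1 and lost it in the other 5 settings that keep all mice (adjusted p from 0.0593 to 0.796), and Elf3 passed with all libraries in one fit (0.0373).

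For non-TRIM24 tumors against glands, genes called were 50 with no filter, 18 with repeats as separate libraries, 367 with no batch term (1 member), 51 with averaged glands and 7 to 476 without single mice (0 to 1 members). Carcinomas against non-TRIM24 tumors gave 2 (pseudocount of 0.1), 8 (no filter), 3 (repeats separate), 10 (no batch term), 2 (averaged glands) and 2 to 89 genes without single mice, with 0 members. Carcinosarcomas against non-TRIM24 tumors gave 265 genes and 0 members with no filter, 13 and 0 with repeats separate, 1628 genes with no batch term, 4 members with a pseudocount of 0.1, and 39 to 1575 genes and 0 to 5 members without single mice.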

Other observations

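Gland 133 and its repeat library differed by -0.55 to 0.26 on the log2(TPM + 1) scale over the 10 members, and Klf5 was the member with the largest difference in both repeated mice. Klf6 and Klf4, zinc finger relatives of Klf5, had 489 and 297 TPM in gland 417_3 and 389 and 249 TPM in gland 517_3, against 53.0 and 17.4 TPM in gland 133 and 72.7 and 27.1 TPM in gland 392. The split of the glands in Klf5 was thus seen in these relatives as well. Both were named after their values were seen.

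Sbsn, a gene of squamous epithelia, had 229, 121 and 215 TPM in non-TRIM24 tumors 219, FVB001 and FVB002 and 248 TPM in carcinoma 89, against 16.4 to 22.2 TPM in the glands. It was chosen after its values were seen, and the other epidermal differentiation markers were mixed. Krt10, Krt77 and Dsg1a were lower in the 3 non-TRIM24 tumors than in every gland. Krt10 had 4.42, 6.82 and 4.91 TPM (8.24 to 9.30 TPM in glands), Krt77 had 0.03 TPM in each (0.08 to 3.05 TPM) and Dsg1a had 0.01 to 0.02 TPM (0.07 to 0.54 TPM). Krt1, Lor, Flg and Ivl overlapped with the glands, and the mean of Ivl was higher in these tumors (0.93 against 0.45 TPM). Grhl3 was 1.33, 0.13 and 1.31 TPM in tumors 219, FVB001 and FVB002 and 7.93 TPM in carcinoma 89.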
